A study of Homo sapiens with 3 samples.

Results

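CXXC4, the gene of the protein Idax that was immunoprecipitated, and its paralogue CXXC5 were examined as sites of binding of Idax itself. Their peaks were chosen from the peak lists by position: every listed peak that shared 1 bp or more with chromosome 4 from 105380000 to 105426000 (CXXC4, minus strand) or with chromosome 5 from 139016000 to 139073000 (CXXC5, plus strand), on the human build hg19. This gave 6 of 17127 peaks, 1 of the 38 in the list of the DNA-binding mutant Myc-IdaxDBM and 5 of the 17089 in the list of wild-type Myc-Idax. Because the lists chose the members, their numbers, scores and widths below are a description with no test.

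The study used chromatin immunoprecipitation with sequencing (ChIP-seq) on HEK293T cells, which derive from human embryonic kidney and express the large T antigen of SV40. Stable lines had been transfected with the mutant Myc-IdaxDBM, with wild-type Myc-Idax or with an empty vector, and an anti-c-Myc agarose gel was used on all of them. The submitters describe 2 replicates for each condition, which were not analysed separately here. There was 1 peak list per tagged protein, each called over the empty-vector line, so no value has a replicate error. Both tagged lines carried an Idax coding sequence in their construct, and the empty-vector line did not. Nothing used here states the species of that sequence, its promoter, or whether a line was 1 clone or a pool.

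Idax and the CXXC5 protein each carry a CXXC zinc finger, a fold held together by zinc-binding cysteines that binds DNA with unmethylated CpG. Both are known as inhibitors of Wnt signalling that bind Dishevelled, and Idax is also known for its link to TET2, an enzyme that oxidises 5-methylcytosine and whose gene lies on the same chromosome as CXXC4. Stretches rich in CpG, called CpG islands, lie at many gene starts and are usually unmethylated there.

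CpG was counted in the 250 bases before each annotated start of the paralogues. Bases after a start were left out, and the CpG content of the peaks themselves was not determined. The sequences are from RefSeq on GRCh38.p14, another build than that of the peaks, so no position was carried from one to the other and none of these windows was placed in a peak. RefSeq listed 1 start for CXXC4, 7 for CXXC5 and 1 for CXXC4-AS1, an antisense RNA that begins inside CXXC4. Shown first are the 250 bases before the CXXC4 start (chr4:104494895-104495144, minus strand), then those before the CpG-richest CXXC5 start, number 4 along the gene (chr5:139648701-139648950, plus strand), and those before its last, number 7 (chr5:139675193-139675442, plus strand). They run 5′ to 3′ on the strand of the gene, and capitals mark each CpG.
CXXC4: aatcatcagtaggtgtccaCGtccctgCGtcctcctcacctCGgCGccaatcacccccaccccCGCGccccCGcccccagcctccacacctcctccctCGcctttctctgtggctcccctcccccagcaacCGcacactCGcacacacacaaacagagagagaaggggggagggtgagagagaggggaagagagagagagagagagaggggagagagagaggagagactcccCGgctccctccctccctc
CXXC5, start 4: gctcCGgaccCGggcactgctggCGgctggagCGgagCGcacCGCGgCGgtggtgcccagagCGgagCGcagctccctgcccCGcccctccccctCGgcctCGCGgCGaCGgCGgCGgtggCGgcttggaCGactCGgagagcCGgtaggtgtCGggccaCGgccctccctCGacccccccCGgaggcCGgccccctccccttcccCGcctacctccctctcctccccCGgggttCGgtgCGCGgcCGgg
CXXC5, start 7: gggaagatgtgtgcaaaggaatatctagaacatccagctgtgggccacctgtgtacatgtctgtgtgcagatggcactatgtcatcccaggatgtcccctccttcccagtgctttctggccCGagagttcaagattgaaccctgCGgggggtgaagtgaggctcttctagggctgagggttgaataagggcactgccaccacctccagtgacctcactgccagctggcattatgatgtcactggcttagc

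The CXXC4 sequence held 11 CpG, with a GC content of 65.2% and a ratio of observed to expected CpG of 0.43. The median over 35116 RefSeq promoter windows was also 11, with a median GC content of 58% and a median ratio of 0.56. As many CpG or more were held by 50.3% of windows, so the 250 bases before the CXXC4 start were not rich in CpG by this measure. The median was not the most common number, since 620 windows held 11 CpG and 3020 held 1. At CXXC5 starts 3 and 4 stood out, with 30 and 33 CpG (observed to expected ratios 0.87 and 0.84), numbers that 12.4% and 8.15% of all windows reached. CXXC5 starts 1, 2 and 5 held 15, 11 and 11, near the median, and the last 2 held 2 each, where 22.9% of windows held as few. The first 4 starts spanned 1.65 kb on GRCh38.p14, start 5 lay 3.69 kb from the first, and the last 2 lay 12.3 and 28.1 kb from it. The motif counted was CG, which reads the same on both strands and occurred at least once in 93.9% of windows. Methylation of these sequences was not measured here.

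**Figure D1:**
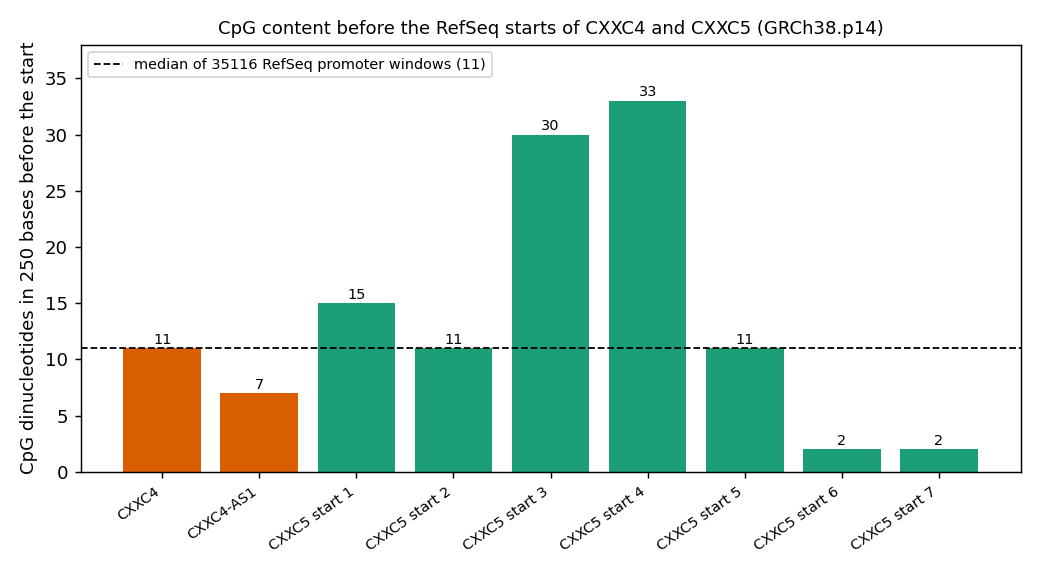
CpG dinucleotides (vertical axis, number) in the 250 bases before each RefSeq start of CXXC4, its antisense RNA CXXC4-AS1 and CXXC5 on GRCh38.p14, 1 bar per start in order along each gene. The dashed line is the median of 35116 promoter windows (11), which CXXC5 starts 3 and 4 exceed with 30 and 33 while the last 2 hold 2 each.

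Another sequence shows the part of CXXC4 that the antisense window spans. It is the 250 bases before the start of CXXC4-AS1 (chr4:104490715-104490964), printed on the minus strand, which is the strand of CXXC4. It had 1 reading frame free of stop codons, of 82 codons, and this frame held 2 runs of 3 cysteine codons (TGT or TGC) with 2 other codons between neighbours, the spacing that gives the CXXC finger its name. Capitals mark these 6 cysteine codons.
CXXC4, antisense window: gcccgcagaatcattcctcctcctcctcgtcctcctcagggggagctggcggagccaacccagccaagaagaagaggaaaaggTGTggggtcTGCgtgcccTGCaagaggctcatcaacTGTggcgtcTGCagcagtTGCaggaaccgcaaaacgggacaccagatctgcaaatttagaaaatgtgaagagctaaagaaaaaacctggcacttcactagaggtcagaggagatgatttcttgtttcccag

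Of the 35116 promoter windows, read on either strand, 3 (0.00854%) held 2 or more such runs in a frame free of stops. The antisense window is itself among these 3. Overlapping runs were counted separately, and the share is a description that was not tested. The same window held 7 CpG, and 58.9% of windows held as many or more. Whether it lies in a CXXC4 peak was not determined.

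At CXXC4 the lists held 1 Myc-IdaxDBM peak and 2 Myc-Idax peaks, and 3169 bp lay between these 2. The Myc-IdaxDBM peak lay at 105411910 to 105412349, spanned 440 bp and scored 93.09 (the score is the authors' value from the peak caller and starts near 50 in both lists). Of the Myc-Idax peaks, the upstream one by the direction of the gene lay at 105415741 to 105416778 (1038 bp, score 397.9). The downstream one lay at 105411613 to 105412571 (959 bp, score 241.28), and the Myc-IdaxDBM peak was inside it. Both Myc-Idax scores were above the median of the whole list (223), at ranks 4425 and 8021 of 17089.

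At CXXC5 the lists held 0 Myc-IdaxDBM peaks and 3 Myc-Idax peaks, and a single peak scored far above the other 2. That peak lay at 139027175 to 139029659, spanned 2485 bp and scored 562.95, at rank 2287 of 17089. The other 2 were narrow and weak, meaning low in score. One lay 9646 bp upstream at 139016946 to 139017528 (583 bp, score 58.2) and the other 235 bp downstream at 139029895 to 139030499 (605 bp, score 57.89). About 95% of the Myc-Idax list scored as high as these or higher (94.9% and 95%), so both sat close to the lower end of the list. A minimum score of 100, which 77.9% of the list reached, left the main peak alone in the window. The highest score in the CXXC5 window was 9.72 times the lowest, against 1.65 times in the CXXC4 window. The scale of the score is not stated in the lists, so these ratios are not fold differences in binding.

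**Figure D2:**
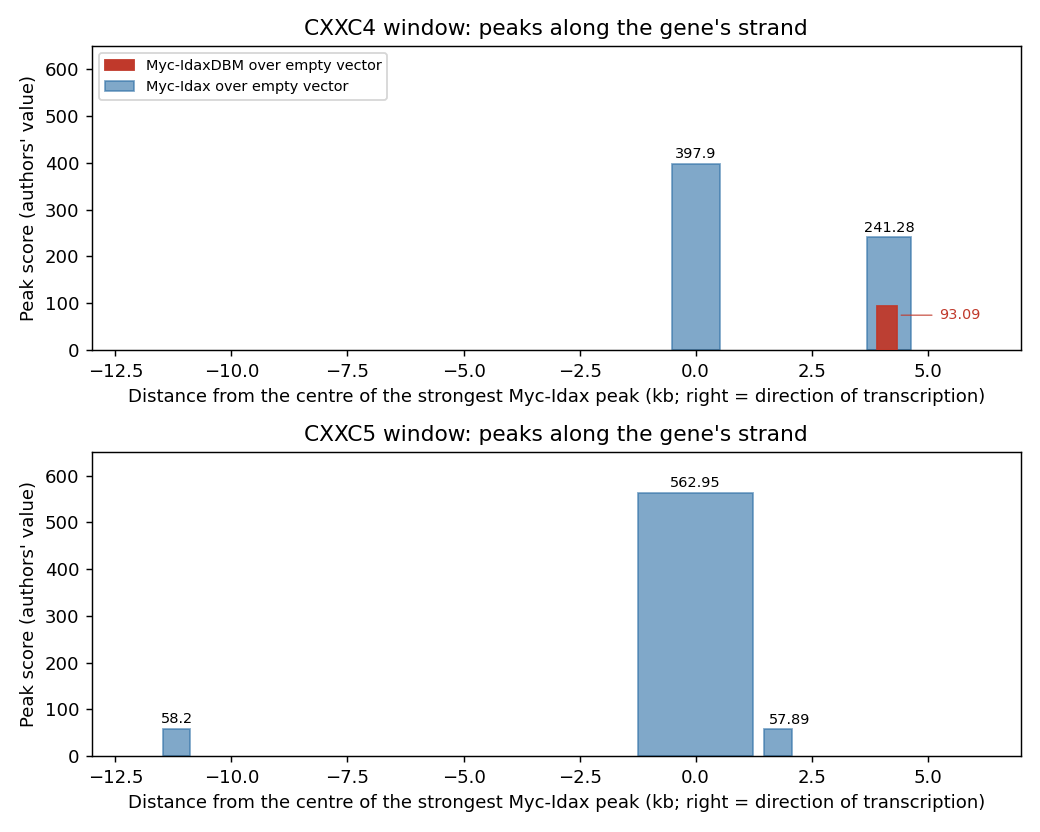
Peaks of the CXXC4 window (above) and the CXXC5 window (below), drawn to scale along the strand of each gene, with distance in kb from the centre of the strongest Myc-Idax peak on the horizontal axis and the authors' peak score on the vertical axis. The Myc-IdaxDBM peak (red, score 93.09) stands inside the downstream CXXC4 peak (blue, 241.28), and the CXXC5 peaks (blue) score 58.2, 562.95 and 57.89 in order along the gene.

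In each window the peaks lay toward the end where the gene begins, and the remainder held none. From the last peak in the direction of transcription to the far edge of the window there were 31.6 kb without a peak of either list at CXXC4 (68.7% of the window) and 42.5 kb at CXXC5 (74.6%). The edges were set by position and reach beyond the genes by an amount not determined on hg19. A site below the authors' threshold is not in the lists, so the empty stretches do not show that Idax was absent. An hg19 annotation was not used here, so peaks were ordered along the strand and not assigned to a promoter or a gene body by a start site.

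Both CXXC4 peaks scored above the median of peaks of like width, the upstream one more clearly. The main CXXC5 peak scored slightly below the median of its own width class. Among the 3007 Myc-Idax peaks within 10% of the width of the upstream CXXC4 peak, 13.4% scored as high or higher. Their median was 208 against its own 397.9. For the downstream CXXC4 peak the share was 32.1% of 2856 peaks (median 178, own score 241.28). The main CXXC5 peak was wider than most, since 3.28% of the list was as wide. Of the 574 peaks of like width 56.6% scored as high, with a median of 607 against its own 562.95. The 2 weak CXXC5 peaks were also below the medians of their width classes, 65.1 and 66.7.

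**Figure D3:**
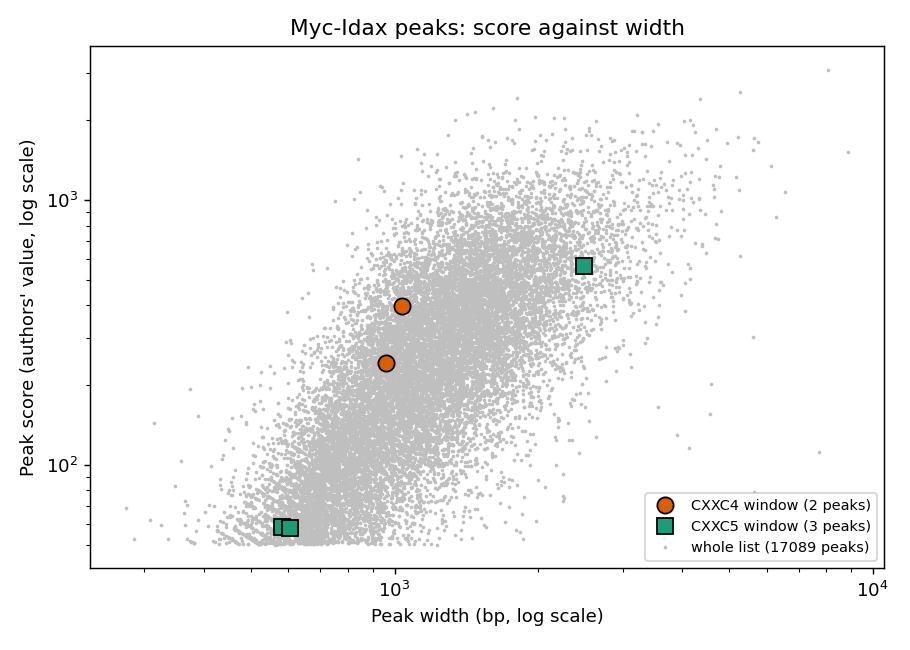
Score (authors' value, log scale) against width (bp, log scale) for the 2 Myc-Idax peaks of the CXXC4 window (orange circles), the 3 of the CXXC5 window (green squares) and all 17089 peaks of the list (grey). All of them lie within the cloud. The CXXC4 peaks (959 and 1038 bp) score above the median of peaks of like width. The CXXC5 peaks (583, 605 and 2485 bp) score below it, the 2485 bp peak only slightly.

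The windows were chosen with the lists known, so their numbers of peaks are set beside other stretches only as a background. The Myc-Idax list was counted in all adjoining tiles as wide as each window, unassembled sequence included. Most tiles held 0 Myc-Idax peaks, 81.6% at the CXXC4 width and 78.5% at the CXXC5 width. Any window with 1 peak would therefore hold more than most tiles. Of 67167 tiles as wide as the CXXC4 window, 5.21% held 2 or more Myc-Idax peaks, and 18.4% held at least 1. Of 54202 tiles as wide as the CXXC5 window, 2.26% held 3 or more, and 21.5% held at least 1. Among tiles with at least 1 peak the shares were 28.3% for 2 or more at the CXXC4 width and 10.5% for 3 or more at the CXXC5 width, so neither number was rare where the list had any peak. On their own chromosomes the shares were lower, 2.31% of tiles with 2 or more on chromosome 4 and 1.17% with 3 or more on chromosome 5. At a minimum score of 100 the CXXC5 window held 1 Myc-Idax peak, a number that 18.5% of tiles reached or passed.

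Myc-Idax peaks covered 1997 bp of the CXXC4 window (4.34%) and 3673 bp of the CXXC5 window (6.44%). As large a share was covered in 4.95% of tiles of the first width and in 1.57% of tiles of the second, or in 26.9% and 7.28% of those with at least 1 peak. The Myc-IdaxDBM peak covered 0.957% of the CXXC4 window. Tiles with a Myc-IdaxDBM peak made up 0.0596% of those as wide as the CXXC4 window, and tiles with a peak of both lists 0.0179%. At the CXXC5 width these shares were 0.0701% and 0.0258%, so nearly all tiles held 0 Myc-IdaxDBM peaks, as the CXXC5 window did.

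**Figure D4:**
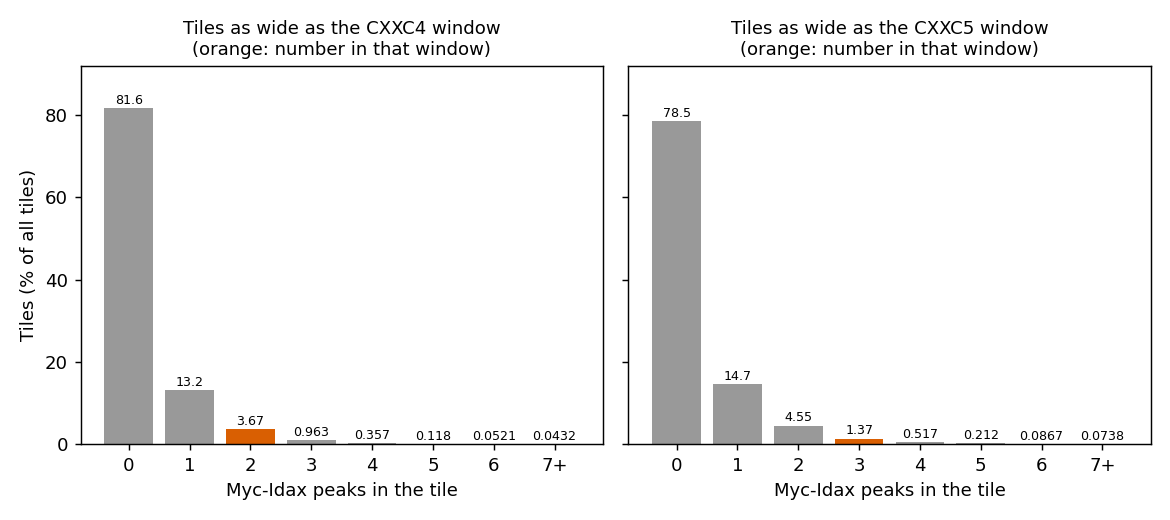
Share of tiles (vertical axis, percent of all tiles of the genome) by the number of Myc-Idax peaks they held (horizontal axis), for tiles as wide as the CXXC4 window (left) and the CXXC5 window (right). Orange marks the number found in the window itself, 2 for CXXC4 (3.67% of tiles) and 3 for CXXC5 (1.37%).

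The surroundings of the paralogues differed. Each CXXC4 peak had 3 other Myc-Idax peaks within 1 Mb of its centre, 1 of them its partner in the pair, and 3.84% of the list had as few. The nearest peaks outside the CXXC4 window lay 1.26 Mb below it (104119093 to 104119943, score 94.5) and 0.641 Mb above it (106066728 to 106068312, score 338.69). The CXXC5 peaks had 31 to 33 others within 1 Mb, against a median of 19 over the list, and 27.1% of the list had 33 or more. Their nearest neighbours outside the window lay 74.1 kb below (138940161 to 138941949, score 509.74) and 15.4 kb above (139088405 to 139089342, score 182.51). The gap of 3.17 kb inside the CXXC4 pair was short, since 11% of the 17065 gaps between neighbouring Myc-Idax peaks were as short and the median gap was 52.6 kb. At CXXC5, 4.87% of gaps were as short as 0.235 kb and 19.4% as short as 9.65 kb, and over the list 7.78% of gaps were under 1 kb.

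The downstream CXXC4 peak was the only 1 of the 5 Myc-Idax peaks that a Myc-IdaxDBM peak overlapped. Over the whole Myc-Idax list 10 of 17089 peaks (0.0585%) were overlapped, and since the lists chose the members nothing is read from this. The Myc-IdaxDBM peak at CXXC4 was the only peak of its list on chromosome 4, where the Myc-Idax list had 606, and chromosome 5 had 0 Myc-IdaxDBM and 782 Myc-Idax peaks. It ranked 2 of 38 by score, after a peak on chromosome 11 (94.45) and before a 3399 bp peak on chromosome 13 (80.8). The median score of the Myc-IdaxDBM list was 55.4. Scores of different lists depend on depth, which is unknown, and were not tested against each other.

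The CXXC4 site was 1 of 10 sites shared by both lists (26.3% of the Myc-IdaxDBM list). Without it the overlap was 9 of 37 Myc-IdaxDBM peaks (24.3%, exact Clopper-Pearson 95% interval 11.8 to 41.2%, for counting error only). This interval takes peaks as independent, which they need not be, since both lists share the empty-vector control and peaks are not replicates. Between the centres of the 2 peaks of a site, the other 9 sites had distances from 123.5 to 1182.5 bp with a median of 202 bp. The CXXC4 site had the smallest distance of the 10, 37.5 bp. The Myc-IdaxDBM peak covered 45.9% of the Myc-Idax peak around it, the largest share of the 10, against 5.71 to 36.5% (median 27.8%) at the others. It left margins of 297 and 222 bp inside the Myc-Idax peak. By score within its own list, the Myc-IdaxDBM peak at CXXC4 was number 2 of the 10 while the Myc-Idax peak was number 9. These are orders within lists and were not tested.

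**Figure D5:**
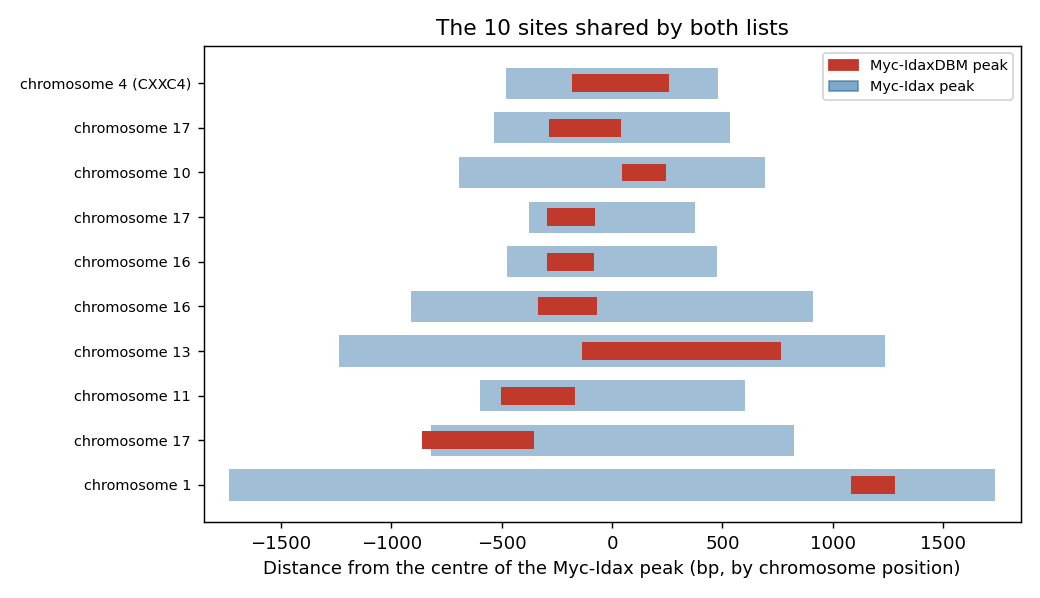
The 10 sites where a Myc-IdaxDBM peak (red) overlaps a Myc-Idax peak (pale blue), drawn to scale as distance in bp from the centre of the Myc-Idax peak, sorted by the distance between the centres of both peaks. At CXXC4 (top) the centres lie 37.5 bp apart and the red bar covers 45.9% of the blue one, and at the lowest site, on chromosome 1, they lie 1182.5 bp apart.

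Both tagged lines held Idax coding sequence that the empty-vector line lacked. Reads of a construct and reads of the chromosomal CXXC4 gene cannot be told apart in these lists, and which of the CXXC4 peaks overlaps coding sequence was not determined on hg19.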

How the data were processed

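The data were 2 peak lists, 1 for Myc-IdaxDBM and 1 for Myc-Idax, each over empty-vector cells. The build hg19 and the tools Bowtie 0.12.7 and MACS 1.4.1 are listed, with no roles given, per the submitters' processing notes. The step that combined replicates is not stated. Each list was deposited with 1 score per peak. The scale of this score is not written in the lists, and read depth is unknown.

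Starts were converted to 1-based positions. Both windows are parts of the question as posed, and the members and lists of measures were chosen with earlier results of these data known. The text names CXXC4 and CXXC5, all peaks in their windows and the nearest peak outside on each side. Tiles ran from the first base of each chromosome to its last Myc-Idax peak. Tile counting and merging were tested on simulated peaks. CpG was counted in the 250 bases before each start of the RefSeq promoter table. Of CXXC4, CXXC5, CXXC4-AS1 and CXXC5-AS1, the first 3 had an entry. No test between the lists was made. Alternatives were a minimum score of 100, merging within 1 kb, other overlaps, other window edges and shifted tiles. The software was Python 3.11.15 with pandas 2.3.3 and numpy 2.4.6, SciPy 1.17.1 for intervals, and matplotlib 3.10.9 for plots.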

Additional observations from a re-analysis of the deposited data

How the results depend on the processing

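No replicate could be left out, since each condition had 1 list. No paired analysis was possible because the lists carry none of the numbers of the replicates. With peaks of score 100 or more only, the CXXC4 window held 0 Myc-IdaxDBM peaks, so 0 Myc-Idax peaks were overlapped, and the CXXC5 window held 1 Myc-Idax peak, which covered 4.36% of it. Tiles with as many Myc-Idax peaks of that score were 3.45% at the CXXC4 width and 18.5% at the CXXC5 width. Covered shares followed the window edges: 3.03% (CXXC4) and 4.77% (CXXC5) with 10 kb added on each side, and 5.55% (CXXC4) with 5 kb removed. The other 24 of 33 alternatives gave the same count within 1.5 times or a share within its binomial interval. Among them the CXXC5 window held 2 Myc-Idax peaks after merging within 1 kb, and also with 5 kb removed. The binomial interval counted each base of a window, or each tile, as a trial. Neighbouring bases and tiles are not independent, so it served only to label alternatives and measured no error. Read depth is unknown, and whether the weak CXXC5 peaks, which score near 50, would be listed at another depth was not tested.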
